A study of Mus musculus with 72 samples.

Results

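The liver response to a high-fat diet (HFD) was compared between 2 inbred mouse strains, C3HeB/FeJ (C3H) and 129P2/OlaHsd (129). For every gene the HFD effect in 129 (HFD minus control) was subtracted from the HFD effect in C3H. This difference of differences, the interaction, was tested for all 19938 genes that carried a probe set with a single gene symbol. A positive interaction means that HFD moved the gene upwards in C3H relative to 129. The contrast used 41 of the 72 arrays of the series. These were 18 arrays of C3H controls, 8 of C3H on HFD, 8 of 129 controls and 7 of 129 on HFD.

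All mice were wild-type males, housed singly and sampled in the fed state, so the groups differed by strain and diet. HFD mice had received the diet for 21 days. Controls carried the treatment label none, and the protocol describes a low-fat diet for them, given for at most 21 days. Every 129 mouse and every C3H mouse on HFD was 17 weeks old, whereas the C3H controls were 15 to 17 weeks old, so in C3H age went partly with diet and the 2 cannot be told apart fully. Total RNA of whole liver was hybridised to Affymetrix Gene ST arrays, and the values are normalised log2 signals per probe set. In such bulk tissue, fewer cells of a type and less RNA per cell cannot be told apart. The labels do not say which mice shared a litter, cage or day, so what the p-values measure is the spread among the sampled mice.

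The liver takes up dietary fat, burns it in mitochondria and peroxisomes, stores it as triglyceride or exports it in lipoproteins. Fatty acids switch on oxidation genes through the nuclear receptor PPARA, while the receptors CAR and PXR control many cytochrome P450 genes that metabolise drugs, steroids and bile acids. In mice, many P450 and secreted-protein genes also differ between the sexes, because the liver reads the sex-specific rhythm of growth hormone. Resident macrophages, the Kupffer cells, and recruited leukocytes respond to lipid loading with inflammatory signals.

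The medians of the arrays lay between 3.10 and 3.28 in C3H and between 6.46 and 6.65 in 129, so levels were not compared between strains and only differences within a strain were used. All 19 measured hepatocyte markers lay above the array median in both strains. H2-Ea, a class II histocompatibility gene that the H2 haplotype of 129 does not express, had a mean of 4.90 ± 0.50 (SD, n = 18) in C3H controls, above their array medians. In 129 controls it had a mean of 4.93 ± 0.15 (SD, n = 8), below theirs. On the first principal component of 129, control replicate 6 stood apart, with a score of 54.3 in size against 22.7 for the next array. The farthest C3H array, HFD replicate 6, had 44.7 against 36.7 for the next, and the results were also computed without both. The median residual SD was 0.229 in C3H and 0.170 in 129.

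The HFD response differed between the strains past the threshold for few genes. Cytochrome P450 genes led on the positive side, with Cyp2b9 first and Cyp3a44 and Cyp3a11 next, together with the apolipoprotein gene Apoa4 and Gas7. On the negative side stood lipoprotein lipase (Lpl), the innate sensor gene Tlr13, the hyaluronan receptor gene Cd44, the steroid enzyme gene Hsd3b3, the secreted-protein genes Saa4 and Serpina1d, and Cox6b2. In limma, 12 of 19938 genes (0.0602%) passed an adjusted p under 0.05 for the interaction, 5 with a higher response in C3H (0.0251%) and 7 with a lower one (0.0351%). At an unadjusted p under 0.05 the number was 1016, or 5.1% of genes, 2.49% with a positive and 2.61% with a negative interaction. The split of higher to lower calls was 5 to 7 with the deposited values, 5 to 11 after centring each array on its median, and 14 to 4 after centring and scaling. The number called rose to 24 when 129 HFD replicate 2 was left out.

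HFD itself changed 170 genes in C3H (0.853%), 103 upwards (0.517%) and 67 downwards (0.336%). It changed 115 genes in 129 (0.577%), 88 upwards (0.441%) and 27 downwards (0.135%). Which strain had more calls turned with the weighting: array weights gave 105 in C3H and 576 in 129, and 1 weight per value set gave 109 and 263. Centring and scaling gave 299 and 39. Of the 12 genes with an interaction, 4 were called in C3H only, 6 in 129 only, and 2, Cyp3a44 and Cyp3a11, in both strains in opposite directions. The estimated effects of the 2 strains had opposite signs for 10 of the 12, whereas 51.7% of all genes had the same sign. The 12 were selected for a large difference between the 2 effects, which favours opposite signs. Only Cyp3a44 and Cyp3a11 were called in both strains, so the count of 10 does not show opposed responses. A call in 1 strain alone was not a difference between strains: 164 genes changed in C3H and 107 in 129 without an interaction past the threshold.

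**Figure D1:**
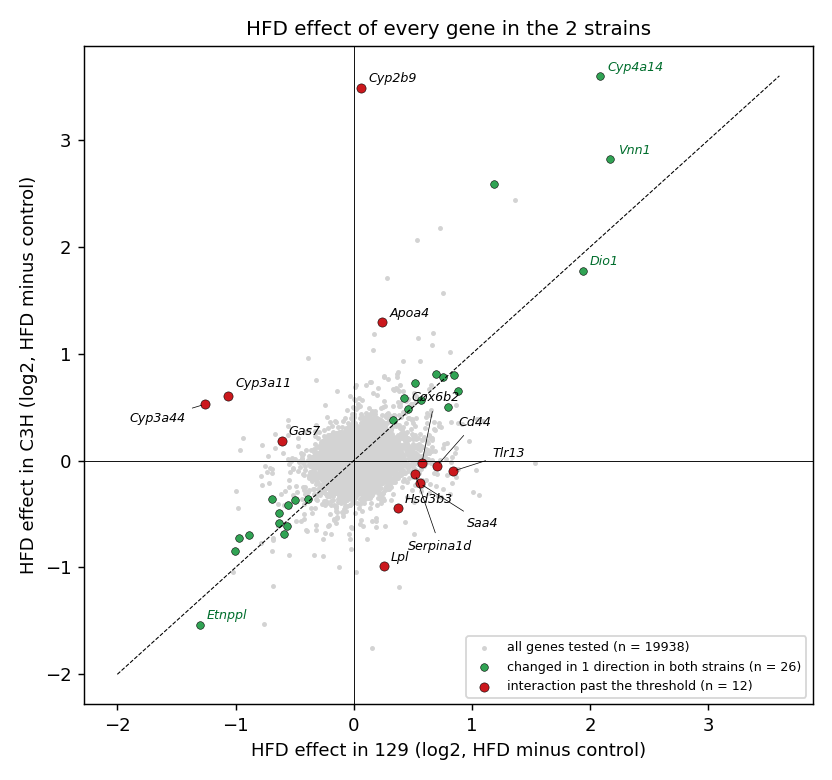
HFD effect of each gene in 129 (x axis) against that in C3H (y axis), both in log2 units, for all 19938 genes tested. Red points mark the 12 genes with an interaction past the threshold, green points the 26 genes that changed in 1 direction in both strains, and the dashed line marks equal effects. Cyp2b9 lies at 3.49 in C3H and 0.07 in 129, whereas Cyp3a44 and Cyp3a11 lie above 0 in C3H and near -1.26 and -1.06 in 129.

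The cytochrome P450 genes with an interaction are shown first through their promoters, the 250 bases before and 50 bases after the annotated start in RefSeq (GRCm38.p6, the C57BL/6J reference, so not the sequence of either strain compared here). These 3 windows are printed because the 3 genes gave the largest positive interactions. Each window held 1 copy of AGGTCA, the core hexamer recognised by many nuclear receptors, which is given in capitals. Among the other called genes with a window, Saa4, whose interaction was negative, also held it, 96 bases before the start. The window of Apoa4, whose interaction was positive, did not hold it. The hexamer was searched on both strands after the sequences were seen, and 16.3% of the 32851 windows in the table held it.

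Cyp2b9, chr7:26173159-26173458, plus strand: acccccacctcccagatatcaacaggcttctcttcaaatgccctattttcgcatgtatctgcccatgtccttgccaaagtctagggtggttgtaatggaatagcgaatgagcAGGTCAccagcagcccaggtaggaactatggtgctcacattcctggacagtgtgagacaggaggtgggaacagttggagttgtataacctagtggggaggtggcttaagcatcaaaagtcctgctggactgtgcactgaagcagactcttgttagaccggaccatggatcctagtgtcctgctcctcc
Cyp3a44, chr5:145805825-145806124, minus strand: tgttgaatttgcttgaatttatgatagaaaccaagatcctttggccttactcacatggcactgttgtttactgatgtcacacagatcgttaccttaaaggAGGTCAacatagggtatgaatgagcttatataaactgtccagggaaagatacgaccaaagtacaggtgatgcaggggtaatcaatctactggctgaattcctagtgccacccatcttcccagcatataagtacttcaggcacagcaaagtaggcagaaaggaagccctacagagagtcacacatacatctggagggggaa
Cyp3a11, chr5:145879805-145880104, minus strand: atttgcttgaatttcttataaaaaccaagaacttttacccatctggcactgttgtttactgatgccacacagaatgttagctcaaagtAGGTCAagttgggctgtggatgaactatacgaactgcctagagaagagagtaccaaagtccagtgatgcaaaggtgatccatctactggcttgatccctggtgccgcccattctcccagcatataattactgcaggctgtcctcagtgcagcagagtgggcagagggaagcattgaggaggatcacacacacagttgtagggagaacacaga

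The hexamer began 138 bases before the start in Cyp2b9, 150 bases before it in Cyp3a44 and 162 bases before it in Cyp3a11. The windows of Cyp3a11 and Cyp3a44, neighbouring genes of 1 family on chromosome 5, were identical at 71.2% of aligned positions, against 47.7% for Cyp3a11 and Cyp2b9. The direct repeat AGGTCANAGGTCA, a form bound by PPARA, was in none of these 3 windows and in 0.0396% of all windows. The STAT5 element TTCNNNGAA, through which growth hormone acts, was also absent from the 3 windows and present in 8.3% of all windows. The repeat AGGTCANNNNAGTTCA, a form bound by CAR, was in no window of the table. Probe sets of close P450 family members can share signal, which limits each value given for these genes.

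Cyp2b9 encodes a P450 that hydroxylates steroids and that in adult mice is transcribed mainly in female liver. In C3H its log2 signal spanned 2.08 to 5.21 in controls, with a median of 2.50, and 4.30 to 6.81 on HFD, with a median of 6.32. The 129 arrays spanned 4.50 to 4.89 in controls, with a median of 4.64, and 4.43 to 5.52 on HFD, with a median of 4.60. On HFD, 7 of 8 C3H arrays were above every C3H control. The exceptions met in the middle: C3H HFD replicate 5 had 4.30, and C3H control replicate 13 had 5.21. The 129 groups overlapped. Cyp2b9 rose by 3.49 ± 0.34 (log2 ± SE) in C3H, with an adjusted p of 1.05e-11. In 129 the estimate was 0.07 ± 0.42, and the interaction was 3.43 ± 0.54, with an adjusted p of 0.000143. Its signal was below the array median on 17 of 18 C3H controls and on every array of 129, a range in which a level cannot be told from background. The sizes of the rise in C3H and of the interaction are therefore uncertain, as is the estimate in 129. It was not testable among genes brighter than the array median.

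Cyp3a44 and Cyp3a11 moved in opposite directions in the 2 strains. Cyp3a11 is the main PXR-inducible P450 of mouse liver, and Cyp3a44 is its neighbour, transcribed mainly in females. In 129, Cyp3a44 lay between 8.26 and 8.89 in controls (median 8.53) and between 6.55 and 8.10 on HFD (median 7.12). Cyp3a11 lay between 13.32 and 13.67 in 129 controls (median 13.48) and between 11.59 and 13.27 on HFD (median 12.43). All 7 HFD arrays of 129 were below every 129 control for both genes. In C3H, Cyp3a44 lay between 4.18 and 5.70 in controls (median 5.29) and between 5.33 and 6.17 on HFD (median 5.68), and Cyp3a11 from 8.05 to 9.94 (median 9.06) and from 9.22 to 10.43 (median 9.60). There the groups overlapped, with 3 of 8 HFD arrays above every control for Cyp3a44 and 2 of 8 for Cyp3a11.

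Cyp3a44 fell by 1.26 ± 0.17 in 129 (2.39-fold, adjusted p 2.15e-06), and the interaction was 1.79 ± 0.22 (adjusted p 3.23e-07), the smallest p-value of the comparison. Cyp3a11 fell by 1.06 ± 0.19 in 129 (2.09-fold, adjusted p 0.000481), with an interaction of 1.67 ± 0.24 (adjusted p 2.39e-05). The fall in 129 and the interaction were called under all 12 alternative settings and whichever array was left out. The rise in C3H was less firm. It was 0.53 ± 0.14 for Cyp3a44 (adjusted p 0.0464) and 0.61 ± 0.16 for Cyp3a11 (adjusted p 0.0288). Its call was lost under 8 and 7 of the 12 alternative settings, with adjusted p up to 0.460 and 0.330, and, for Cyp3a44, when any 1 of 18 arrays was left out. For Cyp3a11 it was lost without C3H control replicate 15 (0.57, adjusted p 0.0514) or 16 (0.56, adjusted p 0.0513) and without C3H HFD replicate 6 (0.52, adjusted p 0.107), 7 (0.51, adjusted p 0.126) or 8 (0.60, adjusted p 0.0542).

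The 27 measured genes of xenobiotic P450s and CAR or PXR targets had 3 interactions past the threshold, all positive and all named above, where 0.0251% of all genes had such a call. Their median interaction was 0.10 beside 0.0063 over all genes. Of the members that missed the threshold, Cyp2c38 had an interaction of 1.35 ± 0.38 (adjusted p 0.247). Cyp2b10, the classical CAR target, had 0.94 ± 0.30 (adjusted p 0.486), with estimates of 0.38 in C3H and -0.56 in 129, and 12 of 18 C3H controls were below the array median for it. The family did not move as one: Cyp3a25 and Cyp3a16 had interactions of 0.24 and 0.14, and Cyp2e1 had 0.00, each far from the threshold. Cyp2c55 fell in 129 (-0.999 ± 0.21, adjusted p 0.00537), and its estimate in C3H was -0.29, with an interaction of 0.71 ± 0.27 (adjusted p 0.76). All 7 HFD arrays of 129 and 6 of its 8 controls were below the array median for Cyp2c55, and after quantile normalisation or centring and scaling the call was lost, with adjusted p up to 0.108. Slco1a4, a liver uptake transporter for bile acids and drugs, fell in 129 (-0.94 ± 0.21, adjusted p 0.012) with an estimate of 0.21 in C3H and an interaction of 1.15 ± 0.28 (adjusted p 0.105). Its fall missed the threshold without 129 HFD replicate 4 (-0.83, adjusted p 0.0527), with only the C3H and 129 arrays, and after centring and scaling (adjusted p up to 0.117).

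**Figure D2:**
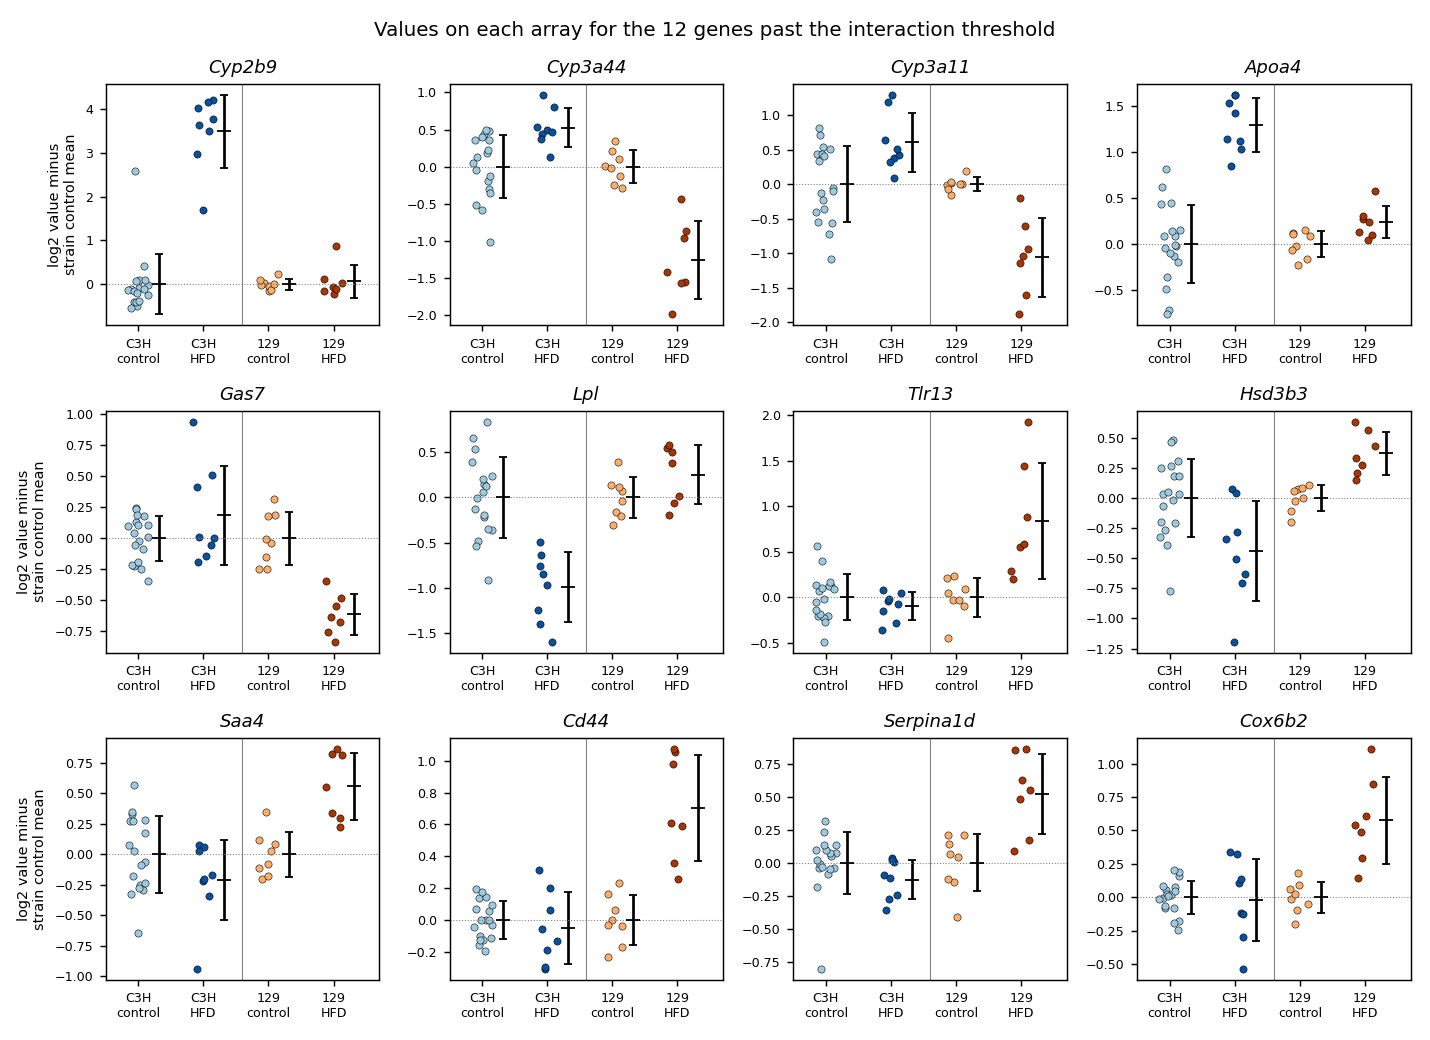
Log2 signal on each of the 41 arrays minus the mean of the controls of the same strain (y axis, own scale in each panel) for the 12 genes with an interaction past the threshold. Points are arrays, and bars give the group mean and SD, with 18, 8, 8 and 7 arrays from left to right. In the panels of Cyp3a44, Cyp3a11 and Gas7 all 7 HFD arrays of 129 lie below every 129 control, and in that of Apoa4 all 8 HFD arrays of C3H lie above every C3H control.

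Apoa4 and Lpl, which act at the export and uptake of triglyceride, changed in C3H only. Apoa4 encodes an apolipoprotein of chylomicrons, very-low-density and high-density lipoproteins. In C3H it lay between 9.23 and 10.81 in controls (median 9.98) and between 10.85 and 11.62 on HFD (median 11.28), with all 8 HFD arrays above every control. In 129 it lay between 13.06 and 13.44 in controls (median 13.32) and between 13.34 and 13.87 on HFD (median 13.53), with 4 of 7 HFD arrays above every control. Apoa4 rose by 1.29 ± 0.13 in C3H (2.45-fold, adjusted p 1.24e-11), the estimate in 129 was 0.24 ± 0.16, and the interaction was 1.05 ± 0.20 (adjusted p 0.00626). In both strains it stood among the brightest genes (percentile 99.0 in C3H controls and 99.7 in 129 controls). After quantile normalisation of all arrays together the interaction was 0.74, with an adjusted p of 0.168.

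Lpl encodes the lipase that releases fatty acids from circulating triglyceride, and adult hepatocytes make little of it. In C3H its signal lay between 4.46 and 6.20 in controls (median 5.39) and between 3.77 and 4.88 on HFD (median 4.46), and 4 of 8 HFD arrays were below every control. Its 129 values lay between 6.81 and 7.50 in controls (median 7.12) and between 6.92 and 7.69 on HFD (median 7.49), so the groups overlapped. Lpl fell by 0.99 ± 0.14 in C3H (1.99-fold, adjusted p 1.21e-06), with an estimate of 0.25 ± 0.17 in 129. Its interaction was -1.24 ± 0.22 (adjusted p 0.00159) and was called under all 12 alternative settings and without any single array.

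The other 22 measured genes of fatty acid uptake and lipoproteins had no interaction past the threshold, and the median of all 24 was -0.02. The fatty acid translocase gene Cd36 rose in C3H (1.71 ± 0.23, adjusted p 1.51e-07), had an estimate of 0.28 ± 0.28 in 129 and an interaction of 1.43 ± 0.36 (adjusted p 0.123). Mfsd2a, a transporter of lysophospholipids that carry long-chain fatty acids, rose in C3H by 2.43 ± 0.34, with an estimate of 1.36 ± 0.41 in 129 and an interaction of 1.07 ± 0.53 (adjusted p 0.97). Apolipoproteins that form the bulk of plasma lipoproteins barely differed, with interactions of -0.01 for Apoa1, -0.06 for Apoe and -0.09 for Apoc3, none called.

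Gas7 encodes a cytoskeletal adaptor first described in growth-arrested cells. In 129 the values lay between 8.26 and 8.83 in controls (median 8.49) and between 7.68 and 8.16 on HFD (median 7.88), without overlap. In C3H it lay only 0.62 above the array median, between 3.40 and 3.99 in controls (median 3.77) and between 3.55 and 4.68 on HFD (median 3.75), with overlap. Gas7 fell by 0.61 ± 0.11 in 129 (1.53-fold, adjusted p 0.000578), the estimate in C3H was 0.19 ± 0.09, and the interaction was 0.80 ± 0.14 (adjusted p 0.00159). It was called under all 12 alternative settings and without any single array.

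Hsd3b3 encodes a 3-beta-hydroxysteroid dehydrogenase of liver and kidney, and its close relatives in the family can share its signal. In 129 it lay between 10.63 and 10.94 in controls (median 10.86) and between 10.98 and 11.46 on HFD (median 11.16), with all 7 HFD arrays above every control. In C3H it lay between 7.66 and 8.92 in controls (median 8.47) and between 7.24 and 8.51 on HFD (median 8.01), with 1 of 8 HFD arrays below every control. Hsd3b3 fell by 0.44 ± 0.11 in C3H (adjusted p 0.018), and the 129 estimate of 0.37 ± 0.13 missed the threshold (adjusted p 0.338). The fall in C3H missed the threshold without C3H HFD replicate 2 (-0.42, adjusted p 0.0659), 3 (-0.34, adjusted p 0.160) or 4 (-0.41, adjusted p 0.0722), and under 2 other settings at the same threshold (adjusted p up to 0.090). The interaction was -0.81 ± 0.17 (adjusted p 0.0183). It missed the threshold without 129 HFD replicate 3 (-0.77, adjusted p 0.0652) or 6 (-0.78, adjusted p 0.0599) and without C3H HFD replicate 3 (-0.71, adjusted p 0.0697) or 4 (-0.78, adjusted p 0.0513). It also missed it with only the C3H and 129 arrays in the fit (adjusted p 0.141) and after centring and scaling (adjusted p 0.221).

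Saa4 and Serpina1d encode secreted liver proteins, a constitutive serum amyloid A and an alpha-1-antitrypsin, and both rose in 129 alone. In 129, Saa4 lay between 11.32 and 11.87 in controls (median 11.50) and between 11.75 and 12.39 on HFD (median 12.08), with 4 of 7 HFD arrays above every control. Serpina1d lay between 9.79 and 10.41 in 129 controls (median 10.25) and between 10.29 and 11.06 on HFD (median 10.75), with 5 of 7 above every control. In C3H both overlapped, Saa4 between 7.82 and 9.05 in controls (median 8.46) and 7.53 to 8.55 on HFD (median 8.29), and Serpina1d from 10.11 to 11.23 (median 10.95) and 10.55 to 10.95 (median 10.81). Among all genes Serpina1d stood at percentile 99.6 in C3H controls and 91.8 in 129 controls, and the part of this brightness was not tested.

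Saa4 rose by 0.56 ± 0.13 in 129 (1.47-fold, adjusted p 0.0188), with an interaction of -0.77 ± 0.17 (adjusted p 0.0448). The rise itself missed the threshold without 129 control replicate 1 or 129 HFD replicate 3, 4 or 6 (adjusted p up to 0.0802). The interaction was the weakest of the 12: its call was lost when any 1 of 21 of the 41 arrays was left out, with interactions over all 41 from -0.83 to -0.67 and the highest adjusted p, 0.163, without 129 HFD replicate 6. Serpina1d rose by 0.52 ± 0.10 in 129 (1.43-fold, adjusted p 0.00209), with an interaction of -0.64 ± 0.13 (adjusted p 0.0109). It missed the threshold without 129 HFD replicate 6 (-0.59, adjusted p 0.056) and without the array farthest on the first component in each strain (-0.57, adjusted p 0.0556). With only the C3H and 129 arrays in the fit, the adjusted p of the interaction was 0.184 for Saa4 and 0.141 for Serpina1d. After centring and scaling it was 0.383 and 0.526. The rise in 129 had an adjusted p of 0.0698 for Saa4 with only those arrays, and after centring and scaling 0.787 for Saa4 and 0.441 for Serpina1d.

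Among 27 measured acute phase and iron genes, Saa4 was the single call, 22 had a negative interaction and the median was -0.19. Saa1 and Saa2, the acute forms, had interactions of -1.38 ± 0.44 (adjusted p 0.533) and -1.12 ± 0.43 (adjusted p 0.76). Lcn2, an iron-binding acute phase protein, rose in 129 (1.09 ± 0.23, adjusted p 0.00537) with an estimate of 0.37 in C3H and an interaction of -0.72 ± 0.30 (adjusted p 0.885). The list did not move together in 129: Orm1 had an estimate of -0.17 there and Crp one of -0.06, neither called.

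Tlr13 and Cd44 rose in 129 and not in C3H, and both are transcribed mainly by leukocytes in liver. Tlr13 encodes an endosomal sensor of bacterial ribosomal RNA, and Cd44 the receptor for hyaluronan. In 129, Tlr13 lay between 6.29 and 6.98 in controls (median 6.75) and between 6.94 and 8.67 on HFD (median 7.33), with 6 of 7 HFD arrays above every control. Cd44 lay between 6.65 and 7.12 in 129 controls (median 6.87) and between 7.14 and 7.96 on HFD (median 7.49), with all 7 HFD arrays above every control. In C3H the groups overlapped, Tlr13 between 2.28 and 3.32 in controls (median 2.78) and 2.41 to 2.84 on HFD (median 2.71), and Cd44 from 2.89 to 3.28 (median 3.09) and 2.78 to 3.40 (median 2.99).

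Tlr13 rose by 0.84 ± 0.14 in 129 (1.79-fold, adjusted p 0.000199), with an interaction of -0.94 ± 0.18 (adjusted p 0.00626). Cd44 rose by 0.70 ± 0.11 in 129 (1.63-fold, adjusted p 0.000142), with an interaction of -0.75 ± 0.15 (adjusted p 0.00708). In C3H the means lay 0.45 and 0.11 below the array median, where a level cannot be told from background. The Tlr13 interaction had an adjusted p of 0.0952 with only the C3H and 129 arrays in the fit. The highest Tlr13 value came from 129 HFD replicate 6, and without it the fit still called Tlr13, at its smallest size of -0.76.

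Markers of macrophages and Kupffer cells moved beside these genes. Of 28 measured markers, 9 rose in 129, where 0.441% of all genes did, and 1 in C3H, where 0.517% did. The number that rose in 129 was 3 without 129 HFD replicate 6, the array with the highest marker mean, and ran from 1 after centring and scaling to 15 with array weights. Of the 28, 27 had a negative interaction, with a median of -0.37 beside 0.0063 over all genes. No marker passed the interaction threshold in limma, and 11 had a negative interaction at an unadjusted p under 0.05, beside 2.61% of all genes. The mean log2 signal over the 28 markers lay between 7.75 and 8.14 in 129 controls (median 7.91) and between 8.02 and 9.02 on HFD (median 8.37), highest in replicate 6. In C3H it lay between 4.36 and 4.85 in controls (median 4.59) and between 4.40 and 4.81 on HFD (median 4.74). Arrays have a floor, so no marker can be read as 0, and 24 members lay above the array median in C3H and 23 in 129. The part of macrophage content in the Tlr13 and Cd44 results was not tested.

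Adgre1, the pan-macrophage F4/80 gene, rose in 129 by 0.97 ± 0.22 (adjusted p 0.00962), with 0.18 ± 0.18 in C3H and an interaction of -0.79 ± 0.28 (adjusted p 0.688). Without 129 HFD replicate 6 the rise was 0.60 (adjusted p 0.111). The complement subunit gene C1qc rose in 129 by 0.75 ± 0.15 (adjusted p 0.00209), with 0.12 in C3H and an interaction of -0.63 ± 0.19 (adjusted p 0.378). Cd5l, a secreted Kupffer cell protein, rose in 129 by 0.79 ± 0.16 (adjusted p 0.00395), with 0.16 in C3H. Signalling adaptors of myeloid immune receptors gave the smallest p-values of the list, Tyrobp at -0.79 ± 0.19 (adjusted p 0.0913) and Fcer1g at -0.82 ± 0.21 (adjusted p 0.131). Mpeg1, a pore-forming protein of phagocytes, had the largest interaction of the list, -0.94 ± 0.24 (adjusted p 0.164). Ly86 rose in both strains, by 0.65 in C3H (adjusted p 0.0428) and 0.88 in 129 (adjusted p 0.0213). The C3H call was lost when any 1 of 14 arrays was left out and under 6 other settings at the same threshold, with adjusted p up to 0.464, and the 129 call without 129 control replicate 1 or 129 HFD replicate 3 or 6 (adjusted p up to 0.176). Markers of lipid-associated macrophages did not follow, with interactions of -0.01 for Trem2 and 0.02 for Gpnmb.

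The other cell type lists, like that of macrophages, had no interaction past the threshold in limma. The 18 lymphocyte markers had a median of -0.03 with 2 members at an unadjusted p under 0.05, the 26 stellate cell and matrix genes -0.04 with 1, the 19 endothelial genes -0.14 with 1, and the 19 hepatocyte genes -0.07 with 2. Negative interactions numbered 11 of 18, 14 of 26, 17 of 19 and 14 of 19 in that order, so a lean to the negative side was not particular to macrophage markers. All 22 pancreatic acinar genes had negative interactions with a median of -0.84, none at an unadjusted p under 0.05. Their mean lay between 6.47 and 11.08 in 129 controls and between 6.44 and 12.20 on HFD, so single arrays carried the acinar signal.

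Cox6b2 encodes an isoform of a cytochrome c oxidase subunit best known from testis. Its 129 values lay between 7.90 and 8.28 in controls (median 8.11) and between 8.25 and 9.21 on HFD (median 8.64), with 6 of 7 HFD arrays above every control. In C3H it lay 0.36 above the array median, between 3.30 and 3.75 in controls (median 3.56) and between 3.01 and 3.88 on HFD (median 3.54). Cox6b2 rose by 0.58 in 129 (1.49-fold), and its interaction was -0.60 ± 0.12 (adjusted p 0.011), the smallest in size of the 12. Without 129 HFD replicate 1, its brightest array, the interaction was -0.51 (adjusted p 0.0542). With only the C3H and 129 arrays in the fit the adjusted p was 0.141. The 40 measured genes of oxidative phosphorylation had a median interaction of 0.01, and none reached an unadjusted p under 0.05 in limma.

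**Figure D3:**
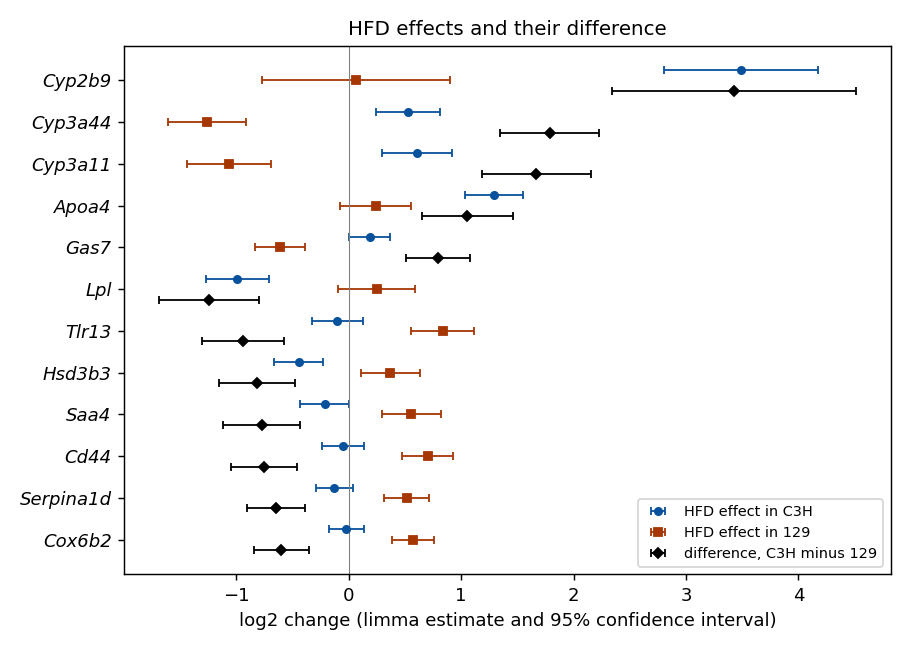
HFD effect in C3H (circles), HFD effect in 129 (squares) and their difference (diamonds) for the 12 genes, as limma estimates in log2 units with 95% confidence intervals. The interval of the difference ran from 2.34 to 4.51 for Cyp2b9 and from -0.84 to -0.35 for Cox6b2, and those of the other genes also exclude 0.

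Among genes that differ between male and female liver, Cyp2b9 and Cyp3a44, both female-biased, passed the interaction threshold. Of 23 measured male-biased genes, 9 fell in C3H, where 0.336% of all genes did, and none was called in 129, where 0.577% were. The number that fell was 5 without C3H HFD replicate 2 and 4 with array weights. The interaction was negative for 21 of the 23, with a median of -0.40, and 13 had an unadjusted p under 0.05, beside 2.61% of all genes with a negative interaction, although none passed the threshold in limma. C8b and C6, which encode components of the complement membrane attack complex, fell in C3H by 0.74 ± 0.11 and 0.73 ± 0.15, with estimates of -0.03 and 0.12 in 129. Their interactions were -0.70 ± 0.17 (adjusted p 0.123) and -0.85 ± 0.23 (adjusted p 0.224). The epidermal growth factor receptor gene Egfr fell in C3H by 0.997 ± 0.20 (adjusted p 0.00154), with an interaction of -0.87 ± 0.32 (adjusted p 0.727).

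Cyp7b1, the oxysterol 7-alpha-hydroxylase of the alternative bile acid pathway, fell in C3H by 0.83 ± 0.15 (adjusted p 0.000337), with -0.03 in 129 and an interaction of -0.80 ± 0.24 (adjusted p 0.385). Hsd3b5, a male-specific steroid enzyme, had the largest estimate of the list at -0.88 ± 0.32 (adjusted p 0.727). The pheromone carrier gene Mup3 hardly differed, at -0.07. Of 21 female-biased genes, 16 had a positive interaction and the median was 0.13, which ran from 0.0579 after centring and scaling to 0.575 among the bright genes alone. Many of them stood near background in these males, with 11 above the array median in C3H and 10 in 129. Among the 15 genes of growth hormone signalling, none was called in the interaction, with a median of -0.18 and 2 at an unadjusted p under 0.05 in limma.

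**Figure D4:**
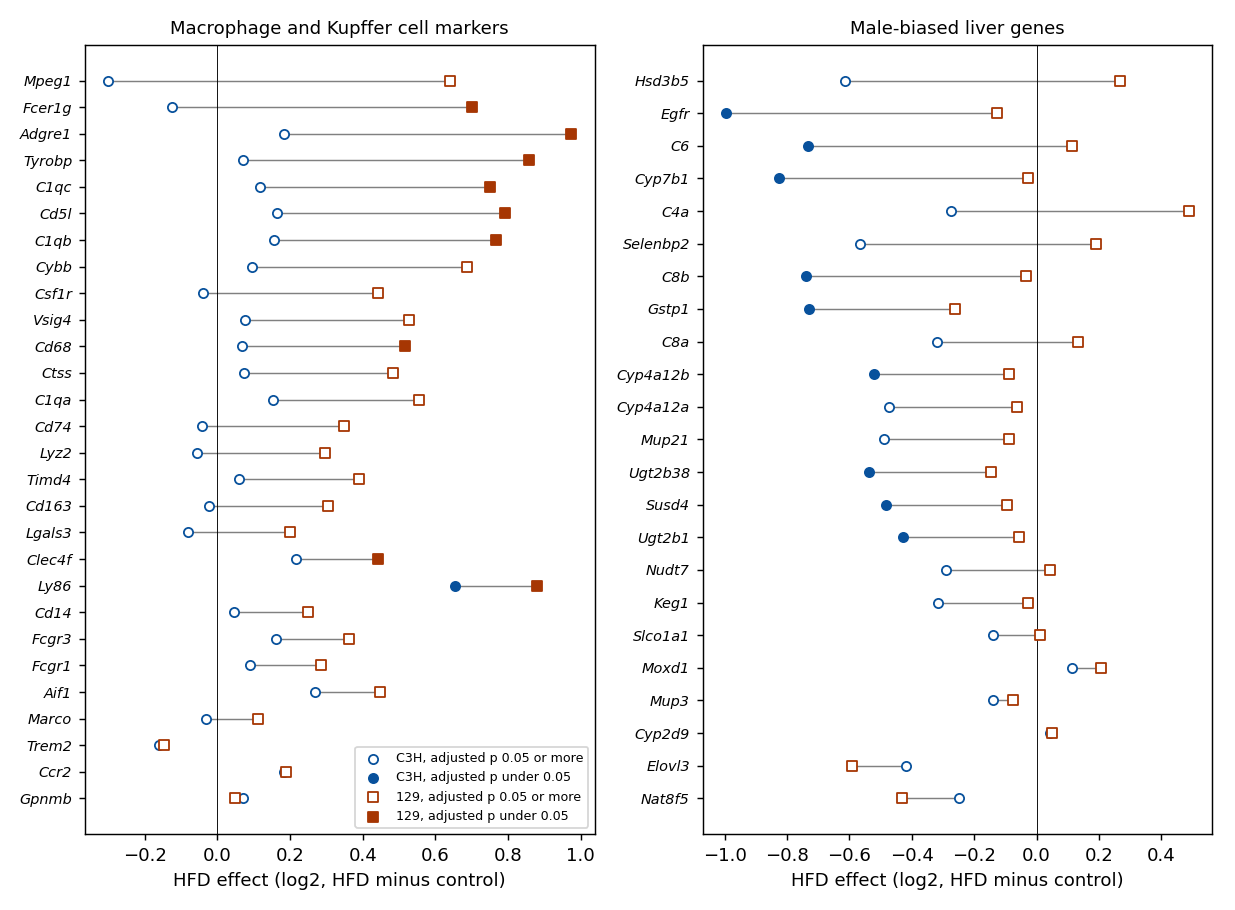
HFD effect (x axis, log2) in C3H (circles) and 129 (squares) for the 28 macrophage markers (left) and 23 male-biased genes (right), ordered by the size of the interaction. Filled symbols passed an adjusted p under 0.05 in that strain. The 129 symbols lie to the right for 27 of 28 macrophage markers and for 21 of 23 male-biased genes, with 9 filled in 129 on the left and 9 filled in C3H on the right.

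The genes that changed in both strains included Cyp4a14, Vnn1 and Dio1, which rose, and Etnppl, which fell. Of the 28 genes called in both strains, 26 moved in 1 direction, 14 up and 12 down, and their interactions ran from -0.30 to 1.51, with a median size of 0.15 and no adjusted p under 0.203. Of all genes called in C3H, 85.3% had the same sign in 129, and of those called in 129, 73.9% had the same sign in C3H, beside 51.7% over all genes. The called lists overlapped by 16.5% of the C3H list and 24.3% of the 129 list.

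Cyp4a14, a PPARA target that hydroxylates fatty acids at the omega end, rose in both strains. In C3H it lay between 2.46 and 3.68 in controls (median 2.88) and between 5.25 and 7.23 on HFD (median 6.92), with no overlap. In 129 the values lay between 7.38 and 12.07 in controls (median 10.36) and between 10.53 and 13.41 on HFD (median 12.37), with 4 of 7 HFD arrays above every control. The rise was 3.59 ± 0.40 in C3H and 2.09 ± 0.49 in 129 (adjusted p 0.0156), with an interaction of 1.51 ± 0.63 (adjusted p 0.887). On 14 of 18 C3H controls Cyp4a14 was below the array median, so the sizes of the C3H rise and of the interaction are uncertain. The call in 129 was lost without 129 control replicate 6 (1.73, adjusted p 0.0799) or 7 (1.84, adjusted p 0.0668) and without 129 HFD replicate 1 (1.84, adjusted p 0.0759) or 2 (1.86, adjusted p 0.0566). It was also lost under 3 other settings at the same threshold (adjusted p up to 0.0798).

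Vnn1, a pantetheinase that recycles the precursor of coenzyme A, rose by 2.82 ± 0.21 in C3H and 2.17 ± 0.26 in 129, without overlap in either strain. It was below the array median on 4 of 18 C3H controls. Dio1, the deiodinase that activates thyroid hormone, rose by 1.78 ± 0.21 and 1.94 ± 0.26, an interaction of -0.16 ± 0.34, with 12 of 18 C3H controls below the array median. Etnppl, a phospholyase of phosphoethanolamine, fell by 1.54 ± 0.18 and 1.30 ± 0.22. Mgll, the monoacylglycerol lipase gene, rose by 0.78 and 0.75, and Eci2, an enoyl-CoA isomerase gene, by 0.57 in each strain, with an interaction of 0.00 ± 0.14. The glutathione transferase genes Gsta4 and Gstm3 fell in both, Gsta4 by 0.61 and 0.57 and Gstm3 by 0.85 and 1.01. These 7 genes had interaction adjusted p-values of 0.975 or more.

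The PPARA-linked lists held no interaction past the threshold in limma. Of 30 measured genes of mitochondrial fatty acid oxidation and ketogenesis, 13 rose in C3H and 2 in 129 (8 with array weights, 6 without C3H control replicate 8), yet the median effects were 0.33 and 0.20 and the median interaction was 0.09, with 3 genes at an unadjusted p under 0.05. The SE of an effect was smaller in C3H, with a median over genes of 0.0892 beside 0.109 in 129. The fit gave each gene 1 spread over all strains, so this order followed the numbers of arrays. The median residual SD was larger in C3H, 0.229 beside 0.170 in 129. With 1 weight per value set, HFD changed 109 of all genes in C3H and 263 in 129. The part of the SE in the larger count of this list was not tested. The carnitine carrier gene Slc25a20 rose by 0.48 in C3H and 0.46 in 129 (adjusted p 0.0245), where the call was lost without 129 control replicate 1, 4 or 6 or 129 HFD replicate 1, 2 or 5 (adjusted p up to 0.131) and under 3 other settings at the same threshold (up to 0.371). Fgf21, the fasting hormone of liver, rose in C3H (1.04 ± 0.15, adjusted p 1.13e-06), had 0.16 ± 0.18 in 129 and an interaction of 0.88 ± 0.23 (adjusted p 0.175), the largest of the list. In 129 Fgf21 was below the array median on 4 of 8 controls and 1 of 7 HFD arrays. The sizes of its 129 estimate and interaction are therefore uncertain. Of 23 peroxisomal genes, 7 rose in C3H and 2 in 129, with a median interaction of 0.16 and 2 at an unadjusted p under 0.05.

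Fatty acid omega-hydroxylation was the pathway list with the largest median interaction, 0.61 over 11 genes, although none was called and 7 had an unadjusted p under 0.05 in limma. In C3H, 6 of the 11 rose and 1 fell, and in 129, 3 rose (1 without 129 control replicate 6). Cyp4a10 rose in C3H by 2.18 ± 0.21, with 0.73 ± 0.26 in 129 (adjusted p 0.326) and an interaction of 1.45 ± 0.33 (adjusted p 0.0621). Vnn3, a pantetheinase relative of Vnn1, rose in C3H by 1.19 ± 0.15, with 0.17 ± 0.18 in 129 and an interaction of 1.01 ± 0.23 (adjusted p 0.067). Both were just outside the threshold, as were Bank1 (-0.58 ± 0.13, adjusted p 0.0596), Cysltr1 (-0.54 ± 0.12, adjusted p 0.0667) and Tyrobp, with Saa4 just inside. Bank1 and Cysltr1 were below the array median on every C3H array. Cyp4a10 passed it under 6 alternative settings and Vnn3 under 6.

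**Figure D5:**
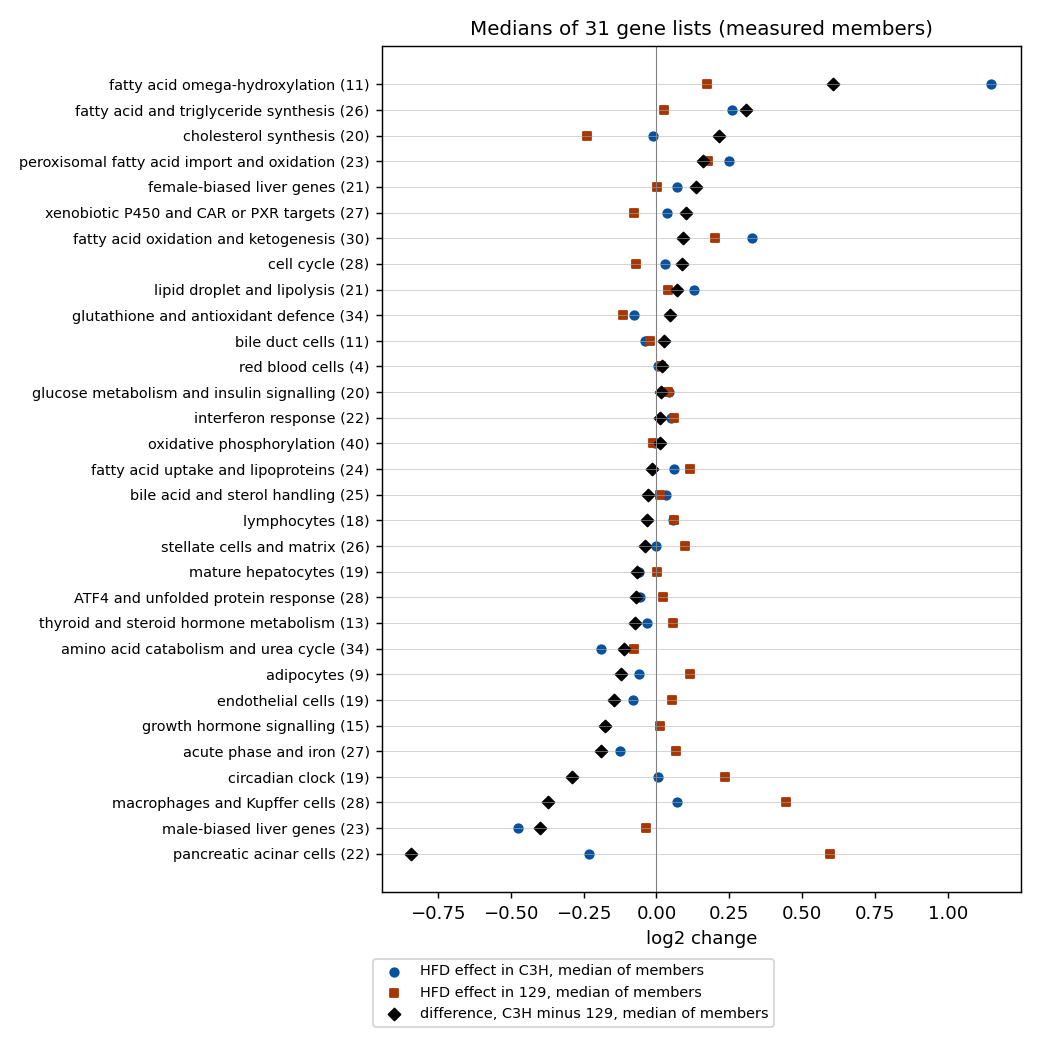
Median HFD effect in C3H (circles), in 129 (squares) and median interaction (diamonds), in log2 units, over the measured members of each of 31 gene lists, with the number of members in brackets. Fatty acid omega-hydroxylation stands at the top with 0.61, and male-biased genes and macrophage markers near the bottom with -0.40 and -0.37. The lowest median, -0.84 for acinar genes, comes with no member at an unadjusted p under 0.05.

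Lipid synthesis genes leaned towards C3H without a call. Of 26 genes of fatty acid and triglyceride synthesis, 21 had a positive interaction, the median was 0.31, and 8 had an unadjusted p under 0.05 in limma. Elovl5, a fatty acid elongase, rose in C3H (0.65 ± 0.13, adjusted p 0.00125), with -0.14 in 129 and an interaction of 0.80 ± 0.21 (adjusted p 0.164). Pnpla3, a lipid droplet acyltransferase and lipase, rose in C3H (0.71 ± 0.13, adjusted p 0.00037), with 0.02 in 129 and an interaction of 0.69 ± 0.21 (adjusted p 0.385). Acss2, the acetyl-CoA synthetase of the cytosol, fell in 129 (-0.79 ± 0.19, adjusted p 0.0215), with -0.14 in C3H. That call was lost without 129 control replicate 1, 2 or 4 or 129 HFD replicate 3 or 6 (adjusted p up to 0.0877). The list's largest interaction was that of the malic enzyme gene Me1, 0.92 ± 0.32 (adjusted p 0.656). Cholesterol synthesis genes had a median interaction of 0.21 over 20 members, 4 of them at an unadjusted p under 0.05 and none called in either strain.

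The responses of the 12 genes in the C57BL/6J (B6J) and C57BL/6NTac (B6N) mice of the series are given for orientation. The arrays of these mice were not part of the contrast, but they entered the same fit and its estimate of spread. Differences of their responses from those of C3H or 129 were not tested here. Cyp3a44 fell in both, by 1.20 ± 0.17 in B6J and 1.48 ± 0.17 in B6N, and Cyp3a11 fell by 0.79 ± 0.19 and 1.08 ± 0.18. Apoa4 rose in both, by 1.68 ± 0.16 and 2.24 ± 0.15. Cyp2b9 rose in B6N by 3.02 ± 0.41 (adjusted p 2.16e-07), with an estimate of 0.04 ± 0.42 in B6J. For the 8 others, Gas7, Lpl, Tlr13, Hsd3b3, Saa4, Cd44, Serpina1d and Cox6b2, neither strain had a change past the threshold.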

How the data were processed

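The authors deposited log2 values per probe set for 72 arrays, which, per the submitters' processing notes, came from RMA run in Affymetrix Expression Console 1.1. Whether all arrays were normalised together is not given in the sources used here. Array medians lay in separate ranges, 3.10 to 3.28 in C3H, 4.51 to 4.67 in the 2 C57BL/6 strains and 6.46 to 6.65 in 129. Strain and value scale therefore cannot be told apart in the interaction. Of 35556 probe sets, 21789 carried 1 gene symbol in the platform annotation, 1621 several and 12146 were not listed; 21698 were matched to current symbols by identifier. For 999 genes with several probe sets, the brightest one (mean of all arrays) was kept. Arrays give no read depth, so precision depends on how many there are.

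The linear model, run in R 4.3.3 with limma 3.58.1, gave every gene a separate mean in each of 8 groups, used all 72 arrays and left 64 residual degrees of freedom. Tests were two-sided, moderated by eBayes and adjusted by Benjamini-Hochberg over all 19938 genes, with calls at an adjusted p under 0.05. All p-values given come from this fit or its stated alternatives. In all, 12 alternative settings were run and each of the 41 arrays was left out in turn.

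All called genes were named, up to 12 per direction, as were up to 4 called members of a list or, with none called, the member with the largest interaction, and genes called in opposite directions. Other genes named were chosen after their values were seen. The comparison and the 31 lists (688 of 773 entries measured) were chosen with earlier results of these data known. Promoter sequences came from RefSeq, with 10 of the 12 genes in the table. Same-numbered samples of a strain were treated as unpaired, since the labels do not say that the numbers pair them. The correlations of their deviations ran from -0.22 to 0.30 over 7 pairs in 129, with 6 of 7 above 0.1. In C3H they ran from -0.27 to 0.19 over 8 pairs, with 1 of 8 above 0.1. Whether same-numbered 129 samples shared a source was not tested.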

Additional observations from a re-analysis of the deposited data

Results flagged for a closer look

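On 129 HFD replicate 1, Cyp2b9 was far above the other 6 arrays of its group: the gap to the nearest was 0.687 of the group's range. On C3H HFD replicate 3, Saa4 was far below the others, with a gap of 0.59 of the range. These were 2 of 36 groups examined, and chance flags about 1 in 20. Not every group of the 12 called genes was among the 36 examined. The lack of a flag for Cyp2b9 on C3H control replicate 13 therefore does not show that this value passed. It was 5.21 there, and 3.03 on the next C3H control. The difference between the HFD effects of C3H and 129 was itself tested and passed the threshold for 12 genes, which stand out for that reason. The log2 interactions above 0 were 3.43 for Cyp2b9, 1.79 for Cyp3a44, 1.67 for Cyp3a11, 1.05 for Apoa4 and 0.796 for Gas7. Those below 0 were -1.24 for Lpl, -0.938 for Tlr13, -0.814 for Hsd3b3, -0.772 for Saa4, -0.752 for Cd44, -0.644 for Serpina1d and -0.597 for Cox6b2.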

How the results depend on the processing

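Of the 12 genes called, Cyp3a44, Cyp3a11, Gas7 and Lpl kept direction and call under all 12 alternative settings, and Cyp2b9 under the 11 in which it was tested. Counts that moved by more than 1.5 times were these. With only the C3H and 129 arrays, 3 genes were lower in C3H. With array weights, 24 were called, 14 of them higher, and HFD changed 105 genes in C3H and 576 in 129, against 109 and 263 with 1 weight per value set. Median centring gave 11 lower, and centring with scaling 14 higher, 4 lower, 299 changed in C3H and 39 in 129. Without the array farthest on the first component of each strain, an alternative chosen after seeing the data, 10 were higher. At an adjusted p under 0.01, 3 were lower, 105 changed in C3H and 64 in 129. Genes called in both strains in opposite directions numbered 2, falling to 1 with array weights or quantile normalisation and to 0 with only the C3H and 129 arrays, 1 weight per value set, median centring, the replicate block, the array farthest on the first component left out, or the stricter threshold. Leaving out each array in turn gave 9 to 24 called (9 without 129 HFD replicate 6, 24 without 129 HFD replicate 2), 5 to 10 higher (10 without 129 control replicate 6), 4 to 16 lower, 139 to 210 changed in C3H, 69 to 158 in 129 and 0 to 2 in opposite directions. The Uqcrb interaction, 0.24 and not called, ran from -0.0025 (without 129 HFD replicate 1) to 0.326. The replicate block, tried although the labels do not say that the numbers pair the samples, called 14 genes, 7 higher. Under it Cd44 (adjusted p 0.0794) and Cox6b2 (adjusted p 0.196) lost their call. Median interactions of lists ran, over the alternative settings, from 0.0516 to 0.236 for fatty acid oxidation, from 0.0579 to 0.575 for female-biased genes and from -2.17 to -0.743 for acinar genes. The causes were not tested. Signals near background limit Cyp2b9 in 129 and in C3H controls, Cyp4a14, Dio1 and Vnn1 in C3H controls, Cyp2c55 and Fgf21 in 129, and Tlr13 and Cd44 in C3H. The same holds for Ciart in C3H and in 129 controls.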

Other observations

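Clock genes were not called in the interaction. Of 19 measured, 16 had a negative interaction (median -0.29) and 3 an unadjusted p under 0.05 in limma. Ciart, a repressor of the clock, rose in 129 by 1.53 ± 0.34 (adjusted p 0.00815), with -0.03 in C3H and an interaction of -1.56 ± 0.44 (adjusted p 0.246). The call in 129 was lost with only the C3H and 129 arrays and after centring and scaling (adjusted p up to 0.071). Ciart was below the array median on 7 of 18 controls and 3 of 8 HFD arrays of C3H, and on 3 of 8 controls of 129. The sizes of its effects and interaction are therefore uncertain. Per3 rose in 129 by 0.91 ± 0.22 (adjusted p 0.0254), with 0.34 in C3H, and the call was lost when any 1 of 7 arrays of 129 was left out (adjusted p up to 0.144). The labels used here give no hour of sampling, and its part was not tested. Amino acid catabolism and urea cycle genes leaned the other way from lipid synthesis: 28 of 34 had a negative interaction (median -0.11), with 10 falling in C3H (5 with array weights) and 2 in 129 (7 with array weights). Acmsd, an enzyme of tryptophan breakdown, fell in C3H by 1.17 ± 0.15, with -0.69 ± 0.19 in 129 (adjusted p 0.0634) and an interaction of -0.48 ± 0.24 (adjusted p 0.97).

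The remaining lists held no interaction past the threshold in limma. Of 34 glutathione and antioxidant genes, 6 fell in C3H (median effect of all 34 -0.08) and 4 in 129 (median -0.12, and 12 fell with array weights), with a median interaction of 0.05. Interferon response genes had a median of 0.01 over 22, with 1 at an unadjusted p under 0.05, and ATF4 and unfolded protein response genes -0.07 over 28, with 2. Cell cycle genes had 0.09 over 28, with 7, and lipid droplet and lipolysis genes 0.07 over 21, with 3. Bile acid and sterol genes had -0.03 over 25 and glucose metabolism genes 0.02 over 20. Thyroid and steroid hormone genes had -0.07 over 13. Bile duct markers had 0.03 over 11, red blood cell markers 0.02 over 4 and adipocyte markers -0.12 over 9. Negative interactions numbered 5 of 11, 1 of 4 and 9 of 9 in that order. When all 35556 probe sets were tested, 19 were called, 13 with 1 gene symbol and 6 without, which were not named.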
